A study of Mus musculus with 16 samples.

Results

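The insulin-like growth factor (IGF) genes described here were the growth factor gene Igf1, the receptor genes Igf1r and Insr, and the binding protein genes Igfbp2, Igfbp3, Igfbp4, Igfbp5 and Igfbp7. They were chosen by gene symbol in the platform annotation and make up 8 of 18193 genes measured. The 8 genes had 26 probe sets, which are groups of short oligonucleotides that each report 1 transcript region. Each gene was represented by its brightest probe set, the one with the highest mean over all 16 arrays, and the other probe sets were set beside it.

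RNA came from mouse embryo heads, per the sample titles, with 6 arrays at embryonic day 9.5 (E9.5), 4 at E11.5 and 6 at E13.5. The submitters call the arrays of a stage biological replicates. The labels give no strain, genotype or treatment and do not say how far the dissection reached beyond the brain. The E9.5 and E11.5 RNA was labelled with Affymetrix's one-cycle IVT kit, whereas Ambion's MessageAmp II-Biotin Enhanced kit was used at E13.5, so that every difference between E13.5 and an earlier stage is also a difference between kits and these cannot be told apart. The question of each comparison was which of these genes changed between stages of early brain development.

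IGF1 is a secreted peptide that signals through the IGF1 receptor, a tyrosine kinase closely related to the insulin receptor. Receptor activation recruits insulin receptor substrate proteins and the PI3 kinase, AKT and TOR cascade, which promotes growth, survival and protein synthesis, and mouse embryos without Igf1r are small. The secreted binding proteins IGFBP1 to IGFBP6 hold IGFs with high affinity, which can keep them from the receptor or carry and release them, and proteases free the ligand by cutting them. IGFBP7 resembles this family but binds IGFs weakly, and it is known from blood vessels and extracellular matrix.

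The genes lie on mouse assembly GRCm38.p6 at chr10:87858265-87937047 (Igf1), chr7:67952257-68233668 (Igf1r), chr8:3150922-3279649 (Insr), chr1:72824480-72852474 (Igfbp2), chr11:7206086-7215498 (Igfbp3), chr11:99040005-99052655 (Igfbp4), chr1:72858065-72874865 (Igfbp5) and chr5:77349240-77408045 (Igfbp7). Igfbp2 and Igfbp5 are neighbours on chromosome 1. They run on opposite strands with their ends facing each other across 5590 bases.

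Promoter sequences are shown for the 6 genes that rose by the largest amounts between E9.5 and E13.5, grouped by the interval in which their brightest probe set rose. Each is the 250 bases upstream of a RefSeq start on GRCm38.p6, written 5′ to 3′ on the gene's strand. The windows of Igf1, Igfbp3 and Igfbp4 precede starts inside the gene spans given above, and the others lie just before their spans. The letters found therefore depend on the start used. Capitals mark the TATA box letters TATAAA and the GC box letters GGGCGG, each on either strand. Igf1 (chr10:87860861-87861110, + strand) and Igfbp7 (chr5:77408046-77408295, − strand) rose over both intervals.
Igf1: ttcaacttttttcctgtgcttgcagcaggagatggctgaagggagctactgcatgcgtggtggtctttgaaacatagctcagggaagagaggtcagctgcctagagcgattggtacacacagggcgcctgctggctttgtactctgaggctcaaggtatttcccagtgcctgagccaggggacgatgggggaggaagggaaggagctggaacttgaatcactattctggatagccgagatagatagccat
Igfbp7: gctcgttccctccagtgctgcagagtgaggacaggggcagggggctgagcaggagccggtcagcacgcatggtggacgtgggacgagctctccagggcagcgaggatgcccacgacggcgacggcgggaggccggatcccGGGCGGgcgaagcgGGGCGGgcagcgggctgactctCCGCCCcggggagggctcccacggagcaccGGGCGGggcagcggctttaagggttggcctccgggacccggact
Igfbp2 (chr1:72824230-72824479, + strand, the first of its listed starts) and Igfbp4 (chr11:99040994-99041243, + strand) rose from E9.5 to E11.5.
Igfbp2: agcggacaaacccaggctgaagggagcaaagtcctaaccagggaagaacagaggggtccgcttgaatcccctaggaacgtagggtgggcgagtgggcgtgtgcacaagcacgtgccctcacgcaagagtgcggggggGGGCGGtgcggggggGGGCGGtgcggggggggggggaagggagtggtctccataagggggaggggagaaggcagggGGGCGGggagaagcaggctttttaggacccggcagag
Igfbp4: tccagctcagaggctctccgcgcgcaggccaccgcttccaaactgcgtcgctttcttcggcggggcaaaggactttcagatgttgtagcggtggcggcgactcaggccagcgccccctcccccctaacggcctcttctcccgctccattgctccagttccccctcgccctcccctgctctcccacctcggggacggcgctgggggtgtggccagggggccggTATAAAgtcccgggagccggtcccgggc
Igfbp3 (chr11:7213924-7214173, − strand) and Igfbp5 (chr1:72874866-72875115, − strand) rose from E11.5 to E13.5.
Igfbp3: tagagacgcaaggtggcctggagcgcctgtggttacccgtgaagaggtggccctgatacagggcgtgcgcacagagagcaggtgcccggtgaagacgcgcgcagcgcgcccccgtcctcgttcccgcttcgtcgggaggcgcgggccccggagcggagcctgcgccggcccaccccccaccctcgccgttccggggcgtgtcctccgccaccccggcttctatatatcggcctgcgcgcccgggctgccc
Igfbp5: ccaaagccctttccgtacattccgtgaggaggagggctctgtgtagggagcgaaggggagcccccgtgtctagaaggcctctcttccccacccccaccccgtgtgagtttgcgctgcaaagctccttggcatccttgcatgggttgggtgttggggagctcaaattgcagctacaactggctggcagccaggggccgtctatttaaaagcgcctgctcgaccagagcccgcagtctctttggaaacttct

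Of the 8 genes, 7 had an entry in the promoter table. TATAAA was in the window of Igfbp4 alone among them, 28 bases upstream of the start, and 12.4% of 32851 RefSeq promoter windows of the same length hold it. GGGCGG was found 4 times for Igfbp7, 3 times for this Igfbp2 start and 2 times for Igf1r, against 32.7% of all windows with at least 1 match. The E-box letters CANNTG, searched on either strand, were found 1 time each for Igf1, Igfbp2, Igfbp3, Igfbp4 and Igfbp5 (66.2% of all windows), and the forkhead letters GTAAACA for none of the 7 (3.2%). The GC content was 77.6% for Igf1r, 74.0% for Igfbp7, 73.2% for Igfbp3, 69.2% for Igfbp4, 67.2% for Igfbp2, 58.8% for Igfbp5 and 52.8% for Igf1, against a median of 52.4% over all windows. Igf1 and Igfbp7 thus differed in GGGCGG, Igfbp2 and Igfbp4 each held letters that the other lacked, and Igfbp3 and Igfbp5 held neither TATAAA nor GGGCGG. The matches are descriptions of the letters and not of binding.

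On the brightest probe sets, Igf1 and the binding protein genes had the large differences, up to 3.09 on the log2 scale, and those of the receptor genes were at most 0.43. From E9.5 to E11.5, 7 of 8 genes passed an adjusted p of 0.05 in limma: Igf1, Igf1r, Insr, Igfbp2, Igfbp4 and Igfbp7 were higher, Igfbp3 was lower and Igfbp5 was not called. Of all genes, 31.0% were called higher and 26.9% lower in that comparison. From E11.5 to E13.5, Igf1, Igfbp3, Igfbp5 and Igfbp7 were higher, Insr was lower and 3 genes were not called, against 27.9% of all genes called higher and 27.0% lower. Across the whole span 7 genes were higher at E13.5 than at E9.5, 0 were lower and Igf1r was not called, against 32.7% and 29.1% of all genes. The median difference of the 8 genes was 0.58, 0.47 and 1.27 on the log2 scale in these comparisons, against 0.02, 0.00 and 0.01 over all genes. All 8 genes were called when the 3 stages were tested together, as were 75.8% of all genes.

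**Figure D1:**
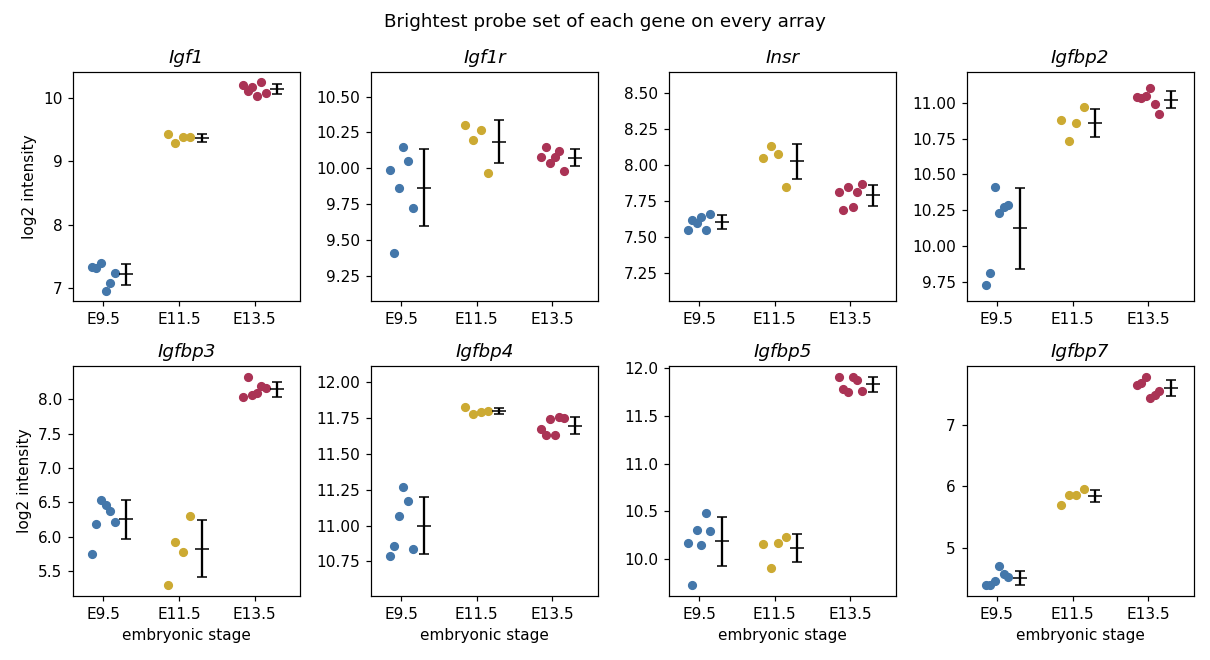
Log2 intensity of the brightest probe set of each of the 8 genes (vertical axis) on every array, by embryonic stage, with points for single arrays and black bars for the stage mean ± SD (n = 6, 4 and 6). The Igf1, Igfbp4 and Igfbp7 arrays separate at every stage, the Igfbp3 and Igfbp5 arrays separate at E13.5 alone, and the Igf1r arrays overlap throughout. How many of all genes separate by stage was not counted. The vertical axes differ between panels.

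**Figure D2:**
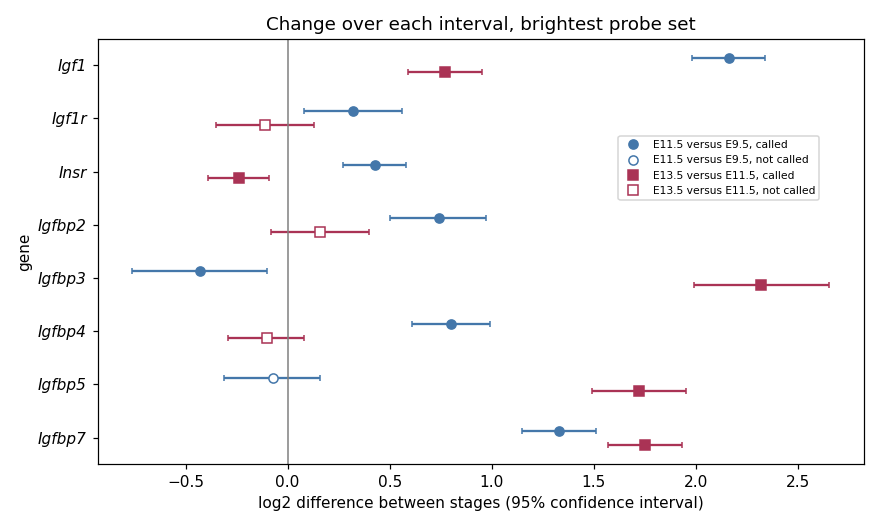
Log2 difference between stages of the brightest probe set of each gene (horizontal axis) with its 95% confidence interval, for E11.5 versus E9.5 (circles) and E13.5 versus E11.5 (squares); filled symbols passed an adjusted p of 0.05. The rise of Igf1 was larger in the first interval, the rises of Igfbp3 and Igfbp5 lay in the second interval, and those of Igfbp2 and Igfbp4 in the first.

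Igf1 rose strongly in the embryo head, most of it before E11.5. Its log2 intensity lay between 6.95 and 7.39 (median 7.27) at E9.5, at 9.43, 9.29, 9.39 and 9.38 at E11.5 in samples 33, 36, 51 and 52 (the order kept for E11.5 below), and between 10.04 and 10.25 (median 10.14) at E13.5. No array of one stage overlapped another stage. The difference was 2.16 ± 0.09 (SE; 4.47-fold; adjusted p = 1.54e-13) over the first interval, E9.5 to E11.5, and 0.77 ± 0.09 (1.7-fold; adjusted p = 2.4e-07) from E11.5 to E13.5. The second step minus the first was -1.39 ± 0.15 (adjusted p = 2.97e-07), and 53.2% of all genes were called in that test of unequal steps.

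The 4 probe sets of Igf1 rose together in the first interval and split in the second. All 4 were called higher at E11.5 than at E9.5, with differences of 0.59 to 2.16. From E11.5 to E13.5 the second-brightest rose by 0.55 ± 0.11 (adjusted p = 0.000162), the next gave 0.31 ± 0.14 (adjusted p = 0.0657), and the dimmest fell by 1.92, back from 6.76 ± 0.20 (SD, n = 4) to 4.84 ± 0.10 (n = 6). Averaged over all 4 probe sets the second interval gave -0.07 (adjusted p = 0.495), so the later rise of Igf1 rests on the 2 brightest probe sets.

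Igf1r, the receptor for IGF1 and IGF2, differed little between stages on its brightest probe set. The log2 intensity lay between 9.41 and 10.15 (median 9.92) at E9.5, at 10.3, 10.2, 10.27 and 9.97 at E11.5, and between 9.98 and 10.15 (median 10.08) at E13.5. The arrays of all stages overlapped, and the highest E9.5 array was level with the highest at E13.5. E11.5 was higher than E9.5 by 0.32 ± 0.11 (SE; 1.25-fold; adjusted p = 0.0201), while E13.5 differed from E11.5 by -0.11 (95% interval -0.35 to 0.13; adjusted p = 0.432) and from E9.5 by 0.21 ± 0.10 (adjusted p = 0.0775). The first call was lost without E11.5 sample 33 (0.28, adjusted p = 0.0631) or sample 51 (0.29, adjusted p = 0.0543), with only these 2 stages in the fit (0.32, adjusted p = 0.0617) and with array weights (0.24, adjusted p = 0.0895). The difference between E13.5 and E9.5 was called without E9.5 sample 19 (0.27, adjusted p = 0.0257) or 22 (0.25, adjusted p = 0.0493) and with a trended and robust variance (0.21, adjusted p = 0.0433).

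The dimmer probe sets of Igf1r went another way. The second-brightest was at 7.80 ± 0.22 (SD, n = 6), 7.53 ± 0.10 (n = 4) and 9.11 ± 0.08 (n = 6) in stage order, a fall of 0.27 followed by a rise of 1.58 ± 0.10 (SE; adjusted p = 9.05e-11). In all, 3 of 5 probe sets fell from E9.5 to E11.5 while the brightest rose, and 3 of 5 rose from E11.5 to E13.5 while the dimmest fell by 0.49. No single direction therefore describes Igf1r over these probe sets.

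Insr, the insulin receptor gene, peaked modestly at E11.5. Its log2 intensity lay between 7.55 and 7.66 (median 7.61) at E9.5, at 8.05, 8.13, 8.08 and 7.85 at E11.5, and between 7.69 and 7.87 (median 7.81) at E13.5. E9.5 lay below all arrays of both later stages, and E11.5 sample 52 fell within the E13.5 range. The differences were 0.43 ± 0.07 (SE; 1.34-fold; adjusted p = 4.25e-05) in the first interval, -0.24 ± 0.07 (adjusted p = 0.00877) in the second and 0.19 ± 0.07 (adjusted p = 0.0169) over the span. When the prefix B62 or B63 in the E13.5 titles was entered as a random block, the second interval (adjusted p = 0.0659) and the span (adjusted p = 0.11) lost their calls. The other 2 probe sets of Insr stayed between 3.64 and 3.82 in stage means, near the lower quartile of all probe sets on an array (3.58), and were not called.

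Among the binding proteins, the brightest probe sets of Igfbp2 and Igfbp4 rose in the first interval and were not called in the second. Igfbp2, a major IGF carrier of fetal tissues, lay between 9.73 and 10.41 (median 10.25) at E9.5, at 10.88, 10.73, 10.86 and 10.97 at E11.5, and between 10.92 and 11.1 (median 11.03) at E13.5. All E9.5 arrays were below all later ones, with samples 13 and 15 the lowest, and the later stages overlapped. The rise was 0.74 ± 0.11 (SE; 1.67-fold; adjusted p = 1.18e-05) in the first interval and 0.56 without samples 13 and 15, and the second interval gave 0.16 ± 0.11 (95% interval -0.08 to 0.40; adjusted p = 0.248). The steps differed by -0.58 ± 0.20 (adjusted p = 0.0209), a call lost without E11.5 sample 52 (-0.51, adjusted p = 0.0734). Igfbp2 had a single probe set.

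Igfbp4, which binds IGFs and in several tissues restrains their action, lay between 10.79 and 11.27 (median 10.97) at E9.5, at 11.83, 11.78, 11.79 and 11.8 at E11.5, and between 11.63 and 11.76 (median 11.7) at E13.5. E9.5 was below both later stages, and the E11.5 arrays sat just above all E13.5 arrays. The first interval gave 0.80 ± 0.09 (SE; 1.74-fold; adjusted p = 2.29e-07) and the second -0.10 ± 0.09 (95% interval -0.29 to 0.08; adjusted p = 0.348). Of its 6 probe sets, 4 rose and 0 fell in the first interval. In the second 0 rose and 3 fell, the largest fall being 1.19 ± 0.09 (adjusted p = 1.81e-09), so 3 of 6 ended higher at E13.5 than at E9.5 and 2 ended lower. The average of all 6 gave -0.43 in the second interval (adjusted p = 0.000133) and the second-brightest gave -0.44 ± 0.09 (adjusted p = 0.000423). That average differed by 0.04 between E13.5 and E9.5 (adjusted p = 0.66), while the brightest differed by 0.70 ± 0.08 (adjusted p = 1.83e-07).

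Igfbp3 on both its probe sets, and Igfbp5 on the brighter of its 2, rose between E11.5 and E13.5. Igfbp3, the main IGF carrier of adult blood, lay between 5.75 and 6.54 (median 6.29) at E9.5, at 5.29, 5.93, 5.78 and 6.3 at E11.5, and between 8.03 and 8.33 (median 8.13) at E13.5. The earlier stages overlapped, and every E13.5 array was above all of them. The second interval gave 2.32 ± 0.16 (SE; 5-fold; adjusted p = 1.56e-10). E11.5 was lower than E9.5 by -0.43 ± 0.16 (adjusted p = 0.024), a call lost without E9.5 sample 16 (-0.37, adjusted p = 0.0553), without E11.5 sample 33 (-0.25, adjusted p = 0.148) or 51 (-0.41, adjusted p = 0.0524), and with only these 2 stages in the fit (adjusted p = 0.0636). The other probe set followed the same course more steeply, with -1.34 ± 0.16 (adjusted p = 4.51e-07) and then 2.53 ± 0.16 (adjusted p = 4.75e-11). The brightest probe set carries the suffix _s_at, which Affymetrix gives to sets that may match more than a single transcript, and so does that of Igfbp5. Other sets used here carry it too, among them the third-brightest of Igfbp4 and the brightest of Ghr and Igf2bp3. The second- and fourth-brightest of Igfbp4 and the only set of Ins2 end in _x_at. What the probes of these sets match was not examined.

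Igfbp5, a binding protein of connective tissue, bone and muscle that also attaches to extracellular matrix, lay between 9.72 and 10.48 (median 10.23) at E9.5, at 10.15, 9.9, 10.17 and 10.23 at E11.5, and between 11.75 and 11.91 (median 11.83) at E13.5. E9.5 and E11.5 overlapped and E13.5 stood clear of both. The first interval gave -0.07 (95% interval -0.31 to 0.16; adjusted p = 0.604) and the second 1.72 ± 0.11 (SE; 3.3-fold; adjusted p = 8.99e-11), a difference of steps of 1.79 ± 0.20 (adjusted p = 3.01e-07).

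The other probe set of Igfbp5 rose in the first interval and fell in the second. It was at 6.82 ± 0.27 (SD, n = 6) at E9.5, at 9.78, 9.59, 10.34 and 9.73 on the E11.5 arrays and at 7.33 ± 0.09 (n = 6) at E13.5. E11.5 stood clear above both other stages, so the set rose by 3.03 ± 0.14 (SE; adjusted p = 1.33e-12) and fell by 2.53 (adjusted p = 9.9e-12). Both probe sets were higher at E13.5 than at E9.5, by 1.65 ± 0.10 and by 0.51 ± 0.13. The interval of the gain thus differed between the probe sets of Igfbp5, and so did its order against its neighbour Igfbp2, which gained in the first interval.

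Igfbp7 had the largest rise of the 8 over the span when brightest probe sets were compared in the main fit. On the same probe sets, alternatives ranged from 2.8 to 2.98 for Igf1 and from 2.43 to 3.12 for Igfbp7. This rank was therefore not kept under all alternatives. At E9.5 the intensities of Igfbp7 were 21 to 26, below the array median of 32. Its log2 intensity lay between 4.39 and 4.7 (median 4.49) at E9.5, at 5.7, 5.86, 5.86 and 5.95 at E11.5, and between 7.43 and 7.78 (median 7.59) at E13.5. The stages did not overlap. The steps were 1.33 ± 0.09 (SE; 2.52-fold; adjusted p = 9.46e-11) and 1.75 ± 0.09 (3.37-fold; adjusted p = 1.67e-12), and E13.5 was 8.49-fold above E9.5 (3.09 ± 0.08; adjusted p = 1.11e-17). The second step exceeded the first by 0.42 ± 0.16 (adjusted p = 0.0286), but not without E11.5 sample 33 (0.32, adjusted p = 0.122) or 36 (0.43, adjusted p = 0.0501), nor with the E13.5 prefix as a random block (adjusted p = 0.0547), a trended and robust variance (adjusted p = 0.0667) or array weights (adjusted p = 0.0697). At E13.5 the 3 samples with prefix B62 lay at 7.64 to 7.78 and the 3 with B63 at 7.43 to 7.55, without overlap. The B62 and B63 ranges overlapped for every other gene of the 8. How many of all genes separate by prefix was not counted, and the labels do not say what the prefixes mean. Entered as a random block, the prefix gave a consensus correlation of 0.60 over all genes. The main fit takes the E13.5 arrays as independent, so its SEs and adjusted p-values for E13.5 may be too small. With the block, Igf1 kept its call from E11.5 to E13.5 (adjusted p = 1.77e-05). In that fit 4 of 8 genes were called from E11.5 to E13.5 and 6 over the span.

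A second probe set of Igfbp7 rose by 1.15 ± 0.14 (SE; adjusted p = 7.83e-07) and then fell by 0.78 (adjusted p = 9.33e-05), from 5.36 ± 0.32 (SD, n = 6) through 6.51 ± 0.25 (n = 4) to 5.74 ± 0.08 (n = 6). Over the span it rose by 0.37 ± 0.13 (adjusted p = 0.0146), where the second-brightest probe set of Igf1 rose by 2.29 ± 0.09. At E9.5 and E11.5 this probe set was the brighter of the pair, and the higher rank of the other came from E13.5. The third had stage means of 2.99 to 3.24 and was not called. The second interval of Igfbp7 thus had opposite signs on 2 probe sets, and the rise to E11.5 and the higher level at E13.5 than at E9.5 were shared by both.

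**Figure D3:**
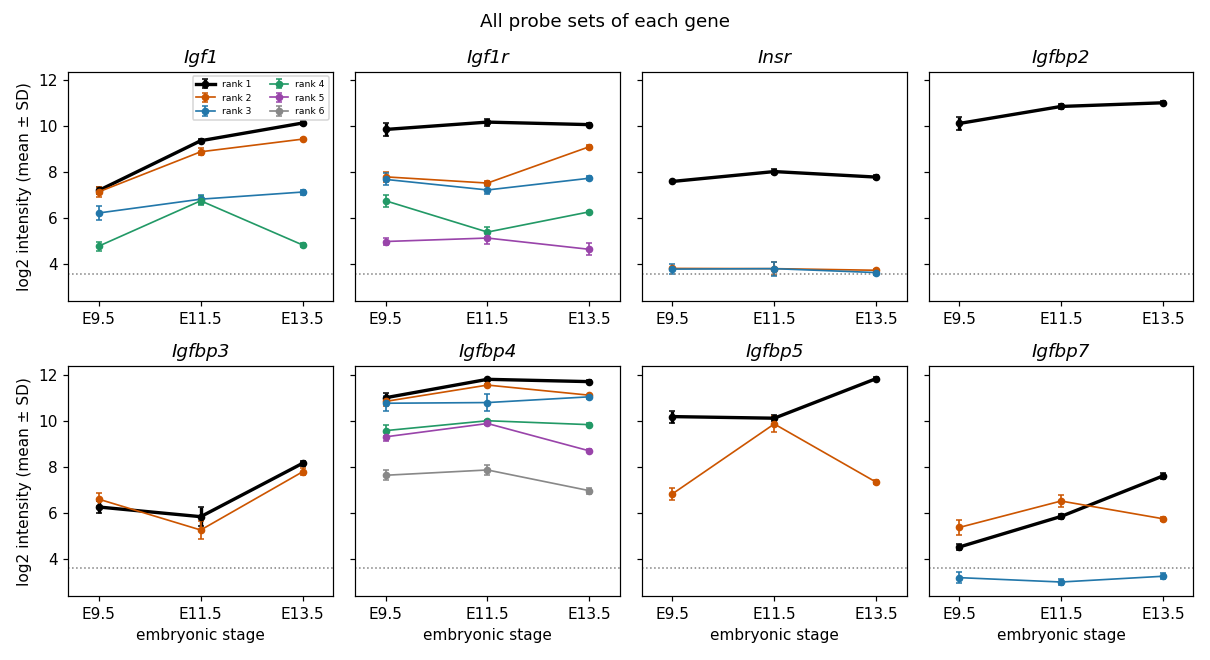
Stage mean ± SD of log2 intensity (vertical axis) for all probe sets of each gene, ranked by brightness, with the brightest as a thick line and the lower quartile of all probe sets as a dotted line. Probe sets of Igfbp3 moved in the same direction in each interval, whereas those of Igf1, Igf1r, Igfbp5 and Igfbp7 turned in different directions at E11.5. Of 6 Igfbp4 sets, 3 were called higher and 2 lower at E13.5 than at E9.5.

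Counted by probe set, 14 of the 26 were higher, 5 lower and 7 not called from E9.5 to E11.5, and 52.4% of all 45037 probe sets were called. From E11.5 to E13.5 the counts were 9, 8 and 9 (51.5% of all probe sets called), and from E9.5 to E13.5 they were 15, 4 and 7 (57.6%). Of the 7 genes with at least 2 probe sets, the 2 brightest were both called for 5 in the first interval. They were both called for 4 in the second interval and for 5 over the span. Opposite calls among these were seen for 1 in the first interval (Igf1r), 2 in the second (Igfbp5 and Igfbp7) and 0 over the span. Over all genes with at least 2 probe sets, opposite signs made up 29%, 30% and 20.7% of the genes whose 2 brightest sets were both called.

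Several tissues of the head changed in the same intervals as the IGF genes, and in whole heads fewer cells of a type and less RNA per cell cannot be told apart. Beside the marker counts, 31.0% of all genes were higher and 26.9% lower in the first interval, and 27.9% and 27.0% in the second. Connective tissue and mesenchyme markers were higher for 10 of 11 genes from E9.5 to E11.5 and for 8 of 11 from E11.5 to E13.5, with summed intensities of 4426 to 5632, 10247 to 10979 and 26764 to 29588 in stage order. Skeletal muscle markers were higher for 9 of 11 in the second interval (224 to 288, 226 to 254 and 5281 to 7381). Myf5 was below an intensity of 12, the lower quartile, at every stage, Myl1 at both earlier stages and Myh3 at E9.5. Cartilage and bone markers were higher for 7 of 9 (1576 to 2222, 1920 to 2235 and 6396 to 7967), with Matn1 below 12 at both earlier stages. In the first interval 3 muscle markers were higher and 3 lower, and 2 cartilage and bone markers were higher and 1 lower. The connective tissue, muscle and cartilage lists moved in the interval in which Igfbp3 and the brightest probe set of Igfbp5 rose. So did lists given below, among them surface ectoderm (10 of 10 higher) and endothelium and pericyte (7 of 12 higher, 2 lower). The part of any of these lists in those rises was not tested.

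Neuron markers were higher for 10 of 10 genes in the first interval and 7 of 10 in the second (903 to 2295, 8676 to 9900 and 14416 to 15184). Neural progenitor markers were higher for 7 and lower for 2 of 10 and then lower for 8 (6058 to 7394, 10742 to 11575 and 8164 to 8762). Macrophage markers were higher for 8 of 10 in each interval (173 to 211, 670 to 726 and 1033 to 1293). Of 12 endothelium and pericyte markers, 5 were higher and 3 lower and then 7 higher and 2 lower (1337 to 1683, 1477 to 1578 and 1980 to 2132). Of 8 choroid plexus markers, 4 were higher and 3 lower and then 5 higher and 2 lower (960 to 1356, 1397 to 2211 and 4300 to 4950). Of 8 red blood cell markers, 4 were higher and 1 lower in the first interval and 0 higher and 7 lower in the second (26223 to 31004, 27788 to 39222 and 13865 to 17252). Of 10 surface ectoderm markers, 0 were higher and 5 lower and then 10 higher (977 to 1684, 601 to 702 and 1481 to 1596). Of 11 lens and pigment markers, 7 were higher and 2 lower and then 6 higher and 0 lower (245 to 300, 485 to 500 and 1633 to 2263). In these lists Hba-a1 and Tyrp1 were below an intensity of 12 at every stage. Kcne2, Aif1, Krt17 and Mlana were below it at both earlier stages, Rgs5, Aqp1 and Kl at E9.5, and Epb42 at E13.5. The part of these cell types in the changes of any of the IGF genes described here was not tested.

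The levels of control probe sets also went with stage. Poly-A spike-ins, added to the RNA before labelling, averaged 7.55 ± 0.22 (SD, n = 6), 5.38 ± 0.13 (n = 4) and 5.12 ± 0.10 (n = 6) on the log2 scale in stage order. In the same order 18S ribosomal RNA averaged 7.25 ± 0.42, 10.19 ± 0.30 and 10.74 ± 0.16, and hybridisation controls 9.84 ± 0.60, 10.92 ± 0.27 and 9.27 ± 0.08. The part of what moved these controls in the changes of the 8 genes was not tested. Handling that went with stage cannot be told apart from stage in the first interval either.

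The other measured ligands were also higher at E13.5 than at E9.5, by other courses. Igf2, the fetal growth factor of the family and an imprinted gene, was at 11 ± 0.32 (SD, n = 6), 11.57 ± 0.11 (n = 4) and 13.21 ± 0.04 (n = 6). It rose by 0.57 ± 0.12 (SE; adjusted p = 0.000453) and then by 1.64 ± 0.12 (3.12-fold; adjusted p = 6.77e-10), and its other probe set stayed between 4.27 and 4.72. Ins2, an insulin gene, rose by 0.63 ± 0.13 in the first interval (adjusted p = 0.000434) and gave -0.01 in the second (adjusted p = 0.967). Together 3 of 3 measured ligands were higher at E11.5 than at E9.5 and 2 of 3 at E13.5 than at E11.5. Without Igf1 these were 2 of 2 and 1 of 2. For this list and those below, 31.0% of all genes were called higher and 26.9% lower in the first interval. In the second interval these shares were 27.9% and 27.0%.

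Of the other receptors, Igf2r, which binds IGF2 and delivers it for degradation, was at 7.96 at both earlier stages and 9.66 ± 0.17 (SD, n = 6) at E13.5, a rise of 1.69 ± 0.12 (SE; 3.23-fold; adjusted p = 2.59e-10), with 0.87 on its other probe set. Insrr, a receptor of the insulin receptor family, rose by 1.1 ± 0.10 (adjusted p = 1.65e-08) and fell by 1.09 (adjusted p = 2.03e-08).

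Outside the 5 binding proteins above, Igfbpl1, a relative of Igfbp7, rose from 5.72 ± 0.14 (SD, n = 6) through 7.30 ± 0.09 (n = 4) to 9.16 ± 0.30 (n = 6), which is 10.8-fold over the span (adjusted p = 4.24e-16). Its other probe set read 5.59, 7.96 and 7.52. Igfbp1 stayed between 3.21 and 3.47 and was not called, and neither was Igfals, the acid-labile subunit of the circulating IGF complex, at 4.31 to 4.62. Igfbp6 differed by 0.36 ± 0.14 (SE) in the second interval (adjusted p = 0.0397) at stage means of 4.60 to 4.96. Of 9 binding proteins and relatives, 4 were higher and 1 lower in the first interval and 5 higher and 0 lower in the second. Without the 5 described above, 1 of 4 was higher and 0 lower in the first interval. In the second, 2 of these 4 were higher and 0 lower.

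Among 7 proteases that cut binding proteins and their inhibitors, 2 were higher and 4 lower in the first interval and 4 higher and 1 lower in the second. Htra1, a serine protease that can cut Igfbp5, rose by 0.65 ± 0.10 (SE; adjusted p = 2.22e-05) and 2.25 ± 0.10 (4.77-fold; adjusted p = 6.22e-13), and its other probe set gave -0.41 and 2. Pappa, the metalloprotease of Igfbp4, fell by 1.08 (adjusted p = 1.17e-07) and then gave -0.14 (adjusted p = 0.321), while Pappa2, which cuts Igfbp5 and Igfbp3, rose by 0.59 and 0.47 (adjusted p = 0.00041 and 0.00316). Adam12 fell by 0.86 and rose by 1.69 (adjusted p = 3.51e-05 and 5.37e-09), though its other probe set gave -0.07 and -0.10. The dimmer probe sets of Pappa gave -0.55 and then -0.69, and 0.13 and then 0.02. Stc1, an inhibitor of PAPP-A proteases, rose by 0.57 in the second interval (adjusted p = 0.000817), and its other probe set gave 0.02.

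The split between higher and lower genes varied among the downstream lists. Of 11 receptor substrates and adaptors, 5 were higher and 4 lower in the first interval and 3 higher and 6 lower in the second. Irs1, the substrate best known from IGF1 receptor signalling, rose by 1.26 ± 0.09 (SE; 2.4-fold; adjusted p = 2.74e-10) and then fell by 0.25 (adjusted p = 0.0228). Irs4 fell over the span by 4.22 (adjusted p = 4.24e-15) and by 1.44 on its other probe set. Grb10, an imprinted adaptor that restrains both receptors, rose by 0.67 and fell by 0.69 (adjusted p = 3.63e-07 and 2.57e-07), with the same signs on its other 2 probe sets.

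In the PI3 kinase and AKT list, 7 of 10 were higher and 1 lower in the first interval and 5 higher and 3 lower in the second. The catalytic subunit gene Pik3ca rose by 0.68 ± 0.14 and 1.77 ± 0.14 (SE; adjusted p = 0.000264 and 1.11e-09), while its other 5 probe sets ranged from -0.02 to 0.95 and from -0.42 to 1.47. The regulatory subunit gene Pik3r3, with a single probe set, rose by 1.01 ± 0.08 and 0.43 ± 0.08 (adjusted p = 8.99e-10 and 7.08e-05). The brightest probe set of Pik3cd swung by 4.89 and -4.10, against 0.12 to 0.34 and -0.18 to 0.20 on its other 5. Of 9 TSC and TOR genes, 3 were higher and 5 lower and then 3 higher and 1 lower. Eif4ebp1, a repressor of translation that TOR inactivates, fell by 1.80 in the first interval (adjusted p = 3.87e-10).

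The FOXO and GSK3 list had 4 of 5 genes higher in the first interval and 1 higher and 2 lower in the second. Gsk3b, a kinase that AKT inhibits, rose by 2.16 ± 0.08 (SE; adjusted p = 1.15e-13) and then gave -0.10. Its other 5 probe sets ranged from -0.82 to 1.25 in the first interval and from 0.11 to 2.73 in the second. In the growth hormone axis 3 of 7 were higher in the first interval, and 2 higher and 1 lower in the second. Ghr, the growth hormone receptor gene, rose by 0.77 ± 0.09 and 0.48 ± 0.09 (adjusted p = 2.36e-07 and 0.000107), while its other 2 probe sets gave -0.62 and 0.65, and 0.52 and -0.58. Socs2, an inhibitor of growth hormone signalling, rose by 2.11 ± 0.13 in the second (adjusted p = 3.64e-11), where its other 5 probe sets ranged from -0.46 to 1.63. The Igf2 mRNA-binding protein genes Igf2bp1 and Igf2bp3 fell over the span by 1.62 and 1.36 (adjusted p = 3.22e-13 and 2.96e-12), with negative values on all their other probe sets.

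**Figure D4:**
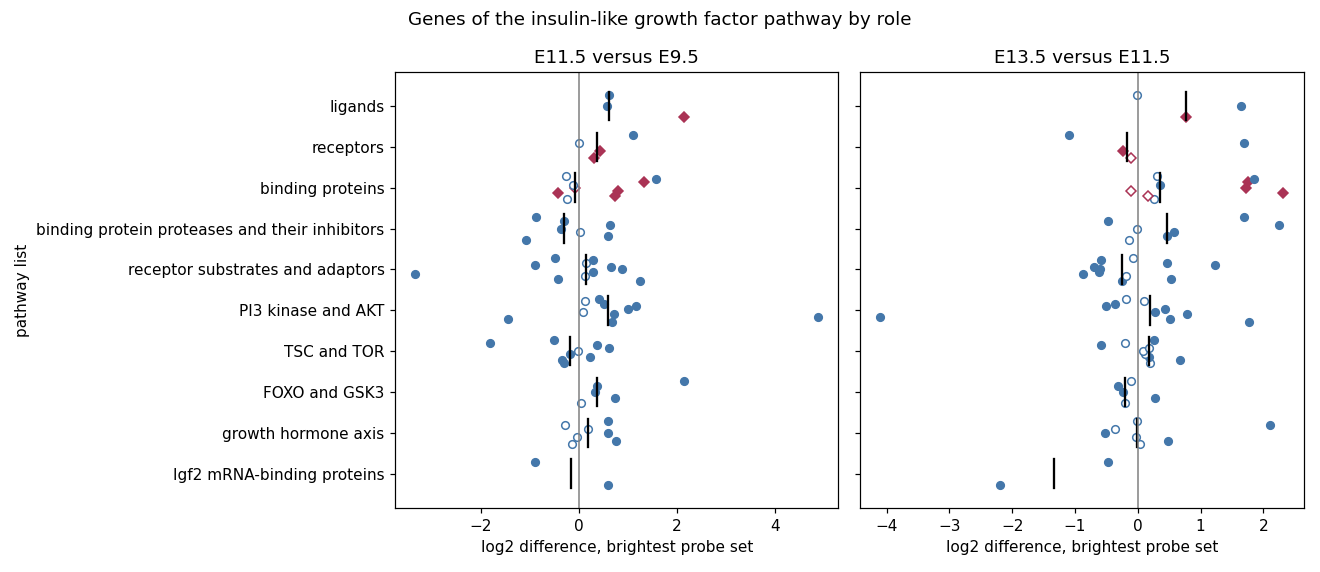
Log2 difference of the brightest probe set of each measured gene in the 10 pathway lists (horizontal axis), for E11.5 versus E9.5 (left) and E13.5 versus E11.5 (right), with diamonds for the 8 genes and circles for other genes, filled where the adjusted p was under 0.05; vertical bars are list medians. The binding protein list has a median of -0.07 in the left panel and 0.36 in the right one, and the substrate, PI3 kinase and TOR lists have points on both sides of 0 in both.

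The genes closest in pattern to each of the 8 were ranked by Pearson's r over the 16 arrays, among 11321 genes with a mean log2 intensity of at least 5. These values describe likeness alone, since arrays of a stage cluster together and the steps between stages set most of each r. Igf1 was closest to Tnik and Aplp1 (0.993 each) and Pou6f1 (0.992). Igfbp7 was closest to Nfib and H2aw (0.997 each) and to the collagen gene Col1a2 (0.996), which is in the connective tissue list. Igfbp4 was closest to Lzts1 and to Dcx, a microtubule protein gene of migrating neurons (0.987 each), and to Id4 (0.986).

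Igfbp5 was closest to Kmt2a (0.989), Dst (0.986) and the slow muscle troponin gene Tnni1 (0.985), and Igfbp3 to Nipsnap1 (0.985), A930013F10Rik and the basement membrane collagen gene Col4a2 (0.983 each). Igfbp2 was closest to Nudt3 (0.989), Hba-a2 (0.981) and Adam23 (0.980). Insr had lower values, with Bcl2l1 (0.932), Kifc2 (0.926) and Zfp383 (0.919), and Igf1r the lowest, with Tbc1d17 (0.860), Ap2a2 (0.854) and Ckap4 (0.846).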

How the data were processed

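Mouse embryo heads of 3 stages were measured on 16 arrays of 1 colour (6 at E9.5, 4 at E11.5, 6 at E13.5). Each deposited value is the linear intensity of a probe set, which the authors computed with RMA, per the submitters' processing notes that name no version. RMA corrects background, normalizes arrays to one another and summarises probes. Values are therefore relative, the fits compare the same probe set between arrays, and the number of arrays limits the precision. The values were whole numbers from 4 to 26979 with a median of 32 on every array, so dim values move in coarse steps. They were taken to log2 here.

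Of 45101 probe sets, 64 controls were left out, 34945 named 1 gene, 932 several and 9160 none in the table used. Symbols were checked through a RefSeq table of GRCm38.p6. Stages were compared with limma (version 3.58.1, run in R 4.3.3; functions lmFit, contrasts.fit and eBayes). A single model held the 16 arrays, with 1 brightest probe set per gene and Benjamini-Hochberg adjustment over 18193 genes. A second fit covered all 45037 probe sets and gives the p-values of the dimmer ones. Calls used an adjusted p under 0.05. The code was tested on simulated data. No paired analysis was needed, since no replicate numbers are shared between stages.

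The text names all 8 genes, all measured ligands, receptors and binding proteins, and some of up to 3 called genes with the largest difference per other list and comparison, a part chosen after their values were seen. The members and lists were chosen with earlier results of these data known. Alternatives were other normalizations, probe set choices, variance models, filters, blocks and left-out arrays.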

Additional observations from a re-analysis of the deposited data

How the results depend on the processing

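The counts of called genes kept within 1.5 times of their values under all alternatives run: 5 to 7 from E9.5 to E11.5, 4 to 6 from E11.5 to E13.5, 6 to 8 over the span, 7 to 8 for any stage and 6 to 8 for unequal steps. Every reversal of a gene, meaning a change of sign with a call in the main fit or the alternative, came from the choice of probe set. The reversals of Igf1 (-0.07, adjusted p = 0.495) and Insr (-0.01, -0.02 and -0.09, adjusted p = 0.931, 0.81 and 0.416) were to values near 0. These were not called under the alternative and show no opposite change. With the mean of all probe sets, the difference from E9.5 to E11.5 was -0.32 for Igf1r and 1.48 for Igfbp5, that from E11.5 to E13.5 was -0.07 for Igf1, 0.47 for Igf1r and -0.40 for Igfbp5, that over the span was -0.02 for Insr, and the second step minus the first was 0.80 for Igf1r, -1.88 for Igfbp5 and -0.36 for Igfbp7. With the second-brightest probe set, the corresponding values were -0.27 for Igf1r, -0.01 for Insr and 3.03 for Igfbp5, then 1.58 for Igf1r, -2.53 for Igfbp5 and -0.78 for Igfbp7, then -0.09 for Insr, and 1.85 for Igf1r, -5.56 for Igfbp5 and -1.92 for Igfbp7. The cause was not tested. On the brightest probe set, differences from E9.5 to E11.5 ranged over alternatives from 2.05 to 2.21 for Igf1 and from 0.92 to 1.38 for Igfbp7, and those from E11.5 to E13.5 from 2.03 to 2.48 for Igfbp3 and from 1.65 to 1.76 for Igfbp5. Alternatives that left out 1 array changed calls of Igf1r, Igfbp3, and the unequal steps of Igfbp2 and Igfbp7, as given with those genes; without E9.5 sample 19 or E11.5 sample 52 the unequal steps of Igf1r were called (adjusted p = 0.0398 and 0.0374). Igfbp2 was called from E11.5 to E13.5 with only these 2 stages in the fit (adjusted p = 0.0498). No paired analysis was possible because the stages share no replicate numbers. Dim probe sets near the lower quartile, such as the other sets of Insr, limit what can be seen.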
